A study of Mus musculus with 10 samples.

Results

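Genes of the mitochondrial ribosome and of the respiratory chain were followed in nascent RNA of mouse embryonic stem cells during depletion of the transcription factor SOX2. They were taken by symbol from the transcribed units (TUs) that overlap 1 annotated gene, called Single Gene TUs: Mrpl and Mrps genes for the mitoribosome, and Nduf, Sdh, Uqcr, Cox4 to Cox8 and Atp5 genes for the chain. Of 158 matching TUs, 157 had more than 10 fragments in at least 2 of the 10 libraries, out of 28459 TUs that passed this filter (14979 of them Single Gene TUs). Uqcrh-ps1, a pseudogene with 1 to 10 fragments per library, did not pass.

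The cells were E14 embryonic stem cells, genotype SOX2-FKBP, in which SOX2 is fused to an FKBP degron, so that dTAG-13 sends the protein to the proteasome. They were kept with leukemia inhibitory factor and inhibitors of MEK and GSK3, and received 500 nM dTAG-13 for 0.5, 1, 2 or 6 h (hours post depletion, hpd) or DMSO alone (NT), with 2 libraries per group. In TT_chem_seq, cells take up 4-thiouridine (here 2 mM for 10 min) and the labelled, freshly made RNA is pulled out and sequenced. No untagged cells given dTAG-13 were analysed here, and the tag acts on the protein, so that transcription of Sox2 itself does not measure the depletion.

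The mitoribosome translates the few proteins encoded by mitochondrial DNA, all of them core subunits of the respiratory chain, and its own proteins are nuclear-encoded and imported. Complexes I to IV pass electrons from NADH and succinate to oxygen, and the ATP synthase uses the resulting proton gradient to make ATP. Most of these genes are housekeeping genes with GC-rich promoters, at many of which the nuclear respiratory factor NRF1, ETS factors such as GABPA, and YY1 are known to act. Naive embryonic stem cells use oxidative phosphorylation together with a high rate of glycolysis.

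The mitoribosome was represented by 73 genes, 46 with Mrpl symbols (taken as large subunit) and 27 with Mrps symbols (taken as small subunit). The respiratory chain was represented by 84, of which 37 were named for complex I, 5 were complex I assembly factors (Ndufaf), 4 complex II, 8 complex III, 12 complex IV and 18 ATP synthase. The symbols do not map perfectly onto the complexes, and the place of each protein in the ribosome was not checked beyond its symbol. Ndufa4 was counted with complex I by its name although its protein is found with complex IV, Mrps36 is now assigned to the oxoglutarate dehydrogenase complex, Atp5s and Atp5sl are not subunits, and Cox4i1 and others with an i, l or longer suffix fell outside the pattern and are given with the other lists.

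The libraries held 11131490 to 25854106 fragments in TUs. The mitoribosome took 0.251% to 0.297% of them and the chain 0.433% to 0.507%. The members were deeply covered, with a median over genes of 586 fragments per library (27.2 to 5319.5), against 353.3 for Single Gene TUs and 58.8 for all tested TUs. All 8 stem cell markers were present, and their summed level was 4167 to 4581 CPM (counts scaled to library size) in NT and 3571 to 3857 CPM at 6 hpd. Of the markers of other cell types, 4 of 8 for primitive endoderm and trophoblast (41.5 to 48.8 CPM in NT, 27.0 to 31.4 CPM at 6 hpd), 4 of 6 for primed epiblast and neural progenitors (34.3 to 37.6 and 26.6 to 28.7 CPM) and 2 of 6 for fibroblasts (9.45 to 12.3 and 27.0 to 42.3 CPM) passed the filter. The others, among them Sox17, Cdx2, Sox1 and Dcn, did not pass it or had no TU of their own. Within these sums the genes went different ways. Tfap2c made up most of the endoderm and trophoblast sum (44.2 and 36.8 CPM in NT, 25.1 and 20.7 CPM after 6 h), while Eomes stood at 2.15 and 2.69 CPM in NT and 7.63 and 9.18 CPM after 2 h, and of that list 2 were called up and 1 down at 2 hpd. Pou3f1, a primed epiblast and neural marker, stood at 0.202 and 0.363 CPM in NT and 2.39 and 2.91 CPM after 6 h, and of that list 1 was called up and 2 down at 6 hpd. In the fibroblast sum Pdgfrb stood at 11.8 and 8.57 CPM in NT and 41.4 and 25.9 CPM after 6 h. Col1a1 stood at 0.471 and 0.872 CPM in NT and 0.913 and 1.16 CPM after 6 h. Of that list 1 was called up at 1, 2 and 6 hpd. Of the 8 stem cell markers 4 were called down at 6 hpd and none up. The part of these shifts in the results was not tested, and in bulk RNA fewer cells of a type and less RNA per cell cannot be told apart.

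Before depletion these genes were transcribed at high levels. Per kilobase of TU, the median level in NT was 1.80 CPM for the mitoribosome and 2.29 CPM for the chain, against 0.777 CPM for all Single Gene TUs, whose upper quartile was 1.79 CPM. Among complexes the median was 3.68 CPM per kb for complex IV, 3.41 for the ATP synthase, 2.96 for complex II, 2.92 for complex III, 1.91 for complex I, 1.84 for the large and 1.59 for the small ribosomal subunit.

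Atp5b, the catalytic beta subunit of the ATP synthase, was highest at 10.9 and 10.7 CPM per kb in NT replicates 1 and 2. Cox5a, a nuclear-encoded subunit of cytochrome c oxidase, followed at 8.98 and 8.70 CPM per kb, and Mrps18b of the small ribosomal subunit at 7.91 and 7.40 CPM per kb. These ranges did not overlap. Atp5g2 (6.02 and 6.25), a gene for the membrane ring of the ATP synthase, Mrpl18 (6.22 and 5.92) and Mrpl17 (5.78 and 6.10 CPM per kb) were next and overlapped one another. At the other end stood Cox7b2, a complex IV gene known mainly from testis, with 0.215 and 0.178 CPM per kb, and Mrpl23, of the large ribosomal subunit, with 0.459 and 0.347 CPM per kb. TUs often run past the annotated end of a gene, and 93 of the 157 were more than 2 times as long as the annotated transcript (median 2.18 times), which lowers a level per kb.

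**Figure D1:**
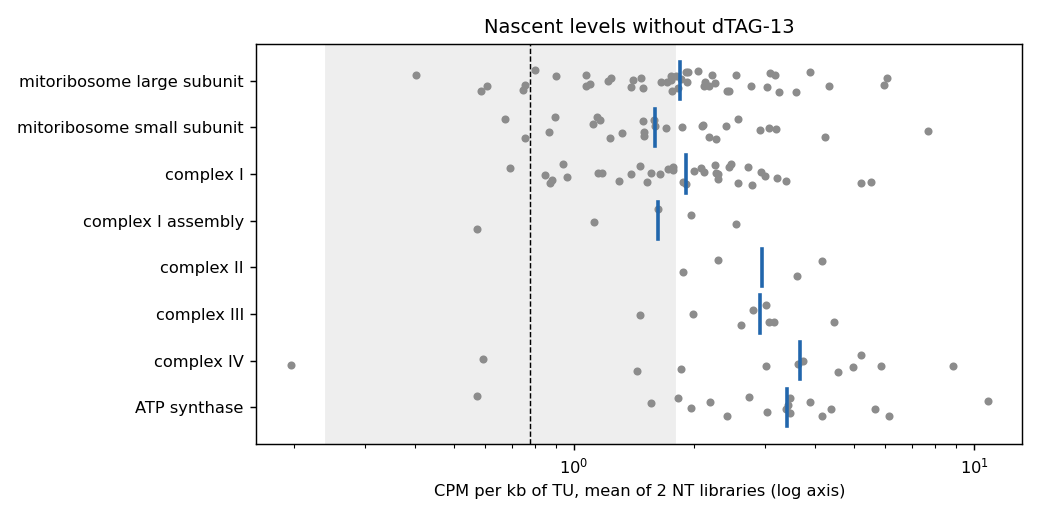
Nascent level of each of the 157 genes in NT cells (points, mean of 2 libraries, CPM per kb of TU on a log axis) by complex, with the median of each complex (blue line), and the median (dashed line) and quartiles (grey band) of all Single Gene TUs. Medians ran from 1.59 for the small ribosomal subunit to 3.68 for complex IV, all above the 0.777 of Single Gene TUs.

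The promoters of these genes held the letters of the known housekeeping factors more often than other promoters. RefSeq promoters (assembly GRCm38.p6, which is mm10; 250 bases before to 50 after the start) could be matched to 136 of the 157 genes, and 4 motifs were searched on both strands, GCGCANGCG for NRF1, CCGGAAG for ETS factors, AAGATGGCG for YY1 and CATTGTNAT for the start of the SOX2-OCT4 composite site (the ETS and YY1 letters can overlap by AAG). NRF1 letters stood in 26.5% of the members' promoters, against 13.1% for the 10896 matched promoters of tested Single Gene TUs and 6.25% of all 32851 promoters. ETS letters stood in 27.2% (17.3% and 8.86%) and YY1 letters in 10.3% (2.97% and 1.4%). At least 1 of these 3 was found in 57.8% of 64 mitoribosome and 51.4% of 72 chain promoters, against 29.5% for Single Gene TUs. The SOX2-OCT4 letters were found in 2 of the 136 promoters, those of Cox7a2 and Uqcr10 (1.47%, against 0.34% for Single Gene TUs and 0.807% of all promoters). The 250 bases before the start are printed for 6 members to show what such promoters look like, 3 of which (Mrpl17, Mrpl52 and Cox5a) were called after depletion. Capitals mark the letters of a motif on either strand: Mrpl17 has ETS letters once and NRF1 letters 2 times, Mrps18b NRF1 letters once, Mrpl52 ETS letters once, Mrpl36 YY1 letters once, Sdha NRF1 letters 3 times, and Cox5a none.
Mrpl17 (chr7:105811088-105811337, - strand): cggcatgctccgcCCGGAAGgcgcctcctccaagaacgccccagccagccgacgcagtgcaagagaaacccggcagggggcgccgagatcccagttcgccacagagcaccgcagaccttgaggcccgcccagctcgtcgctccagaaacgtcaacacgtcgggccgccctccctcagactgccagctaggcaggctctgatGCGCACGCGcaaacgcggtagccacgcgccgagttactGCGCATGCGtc
Mrps18b (chr17:35916441-35916690, - strand): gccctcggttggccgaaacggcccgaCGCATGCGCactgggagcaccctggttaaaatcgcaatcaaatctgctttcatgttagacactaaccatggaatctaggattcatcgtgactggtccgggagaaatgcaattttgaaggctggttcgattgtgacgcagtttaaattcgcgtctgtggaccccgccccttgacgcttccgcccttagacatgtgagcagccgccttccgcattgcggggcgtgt
Mrpl52 (chr14:54426659-54426908, + strand): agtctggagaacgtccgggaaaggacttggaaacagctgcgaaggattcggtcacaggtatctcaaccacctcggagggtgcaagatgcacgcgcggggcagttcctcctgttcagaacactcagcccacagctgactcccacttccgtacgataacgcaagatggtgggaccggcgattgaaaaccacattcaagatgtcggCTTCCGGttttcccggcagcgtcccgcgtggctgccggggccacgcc
Mrpl36 (chr13:73330759-73331008, + strand): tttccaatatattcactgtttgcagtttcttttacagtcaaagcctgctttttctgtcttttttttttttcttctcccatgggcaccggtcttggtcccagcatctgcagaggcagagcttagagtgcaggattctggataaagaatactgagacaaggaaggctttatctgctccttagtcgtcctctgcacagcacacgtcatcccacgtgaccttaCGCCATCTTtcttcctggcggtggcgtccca
Sdha (chr13:74350241-74350490, - strand): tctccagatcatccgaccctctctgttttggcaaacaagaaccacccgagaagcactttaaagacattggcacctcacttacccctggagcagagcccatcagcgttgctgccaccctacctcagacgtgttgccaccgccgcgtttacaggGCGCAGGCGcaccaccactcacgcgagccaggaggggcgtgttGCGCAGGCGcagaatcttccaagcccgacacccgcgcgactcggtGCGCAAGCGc
Cox5a (chr9:57520982-57521231, + strand): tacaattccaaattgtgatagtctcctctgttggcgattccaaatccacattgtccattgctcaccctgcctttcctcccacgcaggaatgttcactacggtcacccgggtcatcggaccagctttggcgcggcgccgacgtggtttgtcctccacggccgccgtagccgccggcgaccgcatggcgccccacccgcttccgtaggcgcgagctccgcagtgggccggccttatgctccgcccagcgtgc
A match is a run of letters and not a measured site. The matched start can also lie away from the start of the TU, as far as 47850 bp in Mrpl46. Among the printed members it lay 3368 bp away in Mrps18b and 2895 bp in Mrpl36. In Mrpl17, Mrpl52, Sdha and Cox5a it lay 391 bp away or less.

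Few of these genes passed the test after loss of SOX2 in the fit without a replicate block. At 0.5 hpd no member was called up (0.527% of all tested TUs) or down (0.787% of all tested TUs) at an adjusted p under 0.05 in edgeR's quasi-likelihood test with Benjamini-Hochberg adjustment over all TUs. At an unadjusted p under 0.05 there were 7 members in edgeR (4.46%, against 9.61% of all tested TUs) and 3 in DESeq2, with none called by DESeq2. At 1 hpd none was called up (2.15% of all tested TUs), whereas 1 member was called down (3.61% of all tested TUs). The 2 hpd libraries gave none up, against 4.26% of all tested TUs, with 2 members down (5.57% of all tested TUs). By 6 hpd 1 member was up (6.61% of all tested TUs), while 6 members were down (9.2% of all tested TUs). Among Single Gene TUs alone the shares at 6 hpd were 10.4% up and 7.73% down. At 1, 2 and 6 hpd 21, 24 and 18 members (13.4%, 15.3% and 11.5%) had an unadjusted p under 0.05 in edgeR, against 18.0%, 24.7% and 30.6% of all tested TUs, and 2, 5 and 3 of them were higher than NT. In DESeq2 these were 8, 11 and 13 members. DESeq2 called none up at 1, 2 or 6 hpd, and 0, 1 and 2 members down.

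By class, the mitoribosome had 1 gene called down of 73 at 1 hpd, 2 at 2 hpd and 4 at 6 hpd (5.48%), and none called up. The chain had none called at 0.5, 1 or 2 hpd, and 1 up (1.19%) and 2 down (2.38%) of 84 at 6 hpd. With total counts only the chain had 3, 7 and 6 down at 1, 2 and 6 hpd and the mitoribosome 1, 5 and 5, and without 2 hpd replicate 2 the chain had 4 up and 5 down at 2 hpd and the mitoribosome 3 up and 3 down. With TMM scaling and every library the 2 classes differed by at most 2 calls in a direction at any time, and no test of that difference was made. In the joint test over all 4 times 1 member was called, against 12.3% of all tested TUs.

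**Figure D2:**
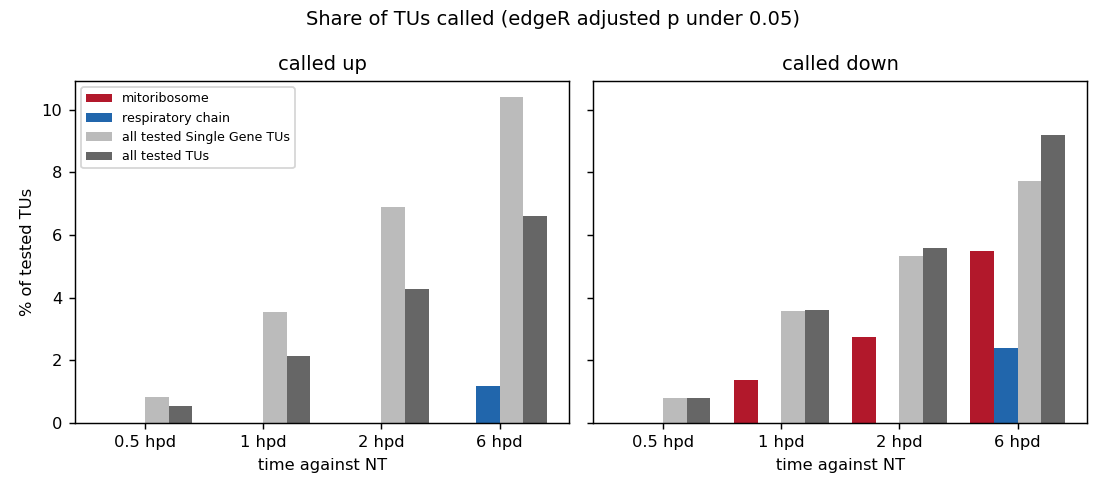
Share of TUs called up (left) and down (right) at each time against NT, in % of the tested TUs of the mitoribosome (73), the respiratory chain (84), all Single Gene TUs (14979) and all TUs (28459). At 6 hpd 5.48% of mitoribosome and 2.38% of chain TUs were called down, below the 9.2% of all TUs.

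The 95% intervals of the fold changes were narrow for these well-covered genes. At 6 hpd the interval lay within 2-fold of NT for 155 of 157 members, and within 0.5 on the log2 scale for 121 of them (77.1%), against 21.1% of all tested TUs and 36.5% of Single Gene TUs. The lowest bound of any member at 6 hpd was -1.03 and the highest 1.69 on the log2 scale.

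Mrpl15, a protein of the large ribosomal subunit, was the member called at the most times. It was among 30 members (19.1%, against 8.67% of all tested TUs) whose libraries all lay below NT at all 4 times, with Mrpl17, Mrpl40, Mrps5, Cox5a, Ndufb5 and Atp5j2. Its TU lies on the minus strand of chromosome 1 (mm10 chr1:4761712-4786692). Mrpl15 had 81.6 and 77.1 CPM in NT, 62.0 and 62.5 CPM after 0.5 h, 64.9 and 56.2 after 1 h, 59.2 and 54.4 after 2 h, and 55.3 and 57.2 after 6 h. Both libraries of each time lay below both NT libraries. The log2 fold change was -0.35 ± 0.10 (SE) at 0.5 hpd, where it missed the threshold (edgeR adjusted p = 0.143). It then passed, with -0.39 ± 0.10 after 1 h (adjusted p = 0.0375), -0.48 ± 0.10 after 2 h (adjusted p = 0.00769) and -0.50 ± 0.10 after 6 h (adjusted p = 0.00447). It was the gene called in the joint test (edgeR adjusted p = 0.0163). At 2 and 6 hpd it was called without any 1 of the 10 libraries and by DESeq2, whereas the call at 1 hpd was lost without either library of NT, 1 hpd or 6 hpd and in DESeq2. An antisense TU across the Mrpl15 start, with a mean of 46 fragments, also fell at 2 hpd (-0.83, adjusted p = 0.0468).

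Mrpl52, Mrpl40 and Mrpl17, further proteins of the large subunit, were called at 1 time each. Mrpl52 (chr14:54426518-54445653, plus strand) had 21.7 and 19.3 CPM in NT, 16.7 and 20.6 after 0.5 h, 15.3 and 15.7 after 1 h, 13.9 and 15.5 after 2 h and 15.6 and 15.8 after 6 h. The libraries overlapped NT at 0.5 hpd and lay below it from 1 hpd on. Its log2 fold change was -0.48 ± 0.14 at 2 hpd (edgeR adjusted p = 0.0366), and -0.40 ± 0.14 at 1 hpd (0.118) and -0.38 ± 0.14 at 6 hpd (0.0738) missed the threshold.

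Mrpl40 (chr16:18864987-18877977, minus strand) had 36.0 and 36.1 CPM in NT and 28.6 and 28.1 CPM after 6 h, with 33.1 and 35.2, 27.8 and 30.2, and 27.9 and 30.6 CPM in between. It was below NT in every treated library and was called at 6 hpd (-0.35 ± 0.11, edgeR adjusted p = 0.0420). Mrpl17 (chr7:105800890-105811071, minus strand) had 58.9 and 62.1 CPM in NT, 53.4 and 55.2, 51.7 and 52.4, and 46.3 and 50.8 CPM at 0.5, 1 and 2 hpd, and 46.4 and 50.5 CPM after 6 h. It too lay below NT in every treated library and was called at 6 hpd (-0.32 ± 0.10, edgeR adjusted p = 0.0442).

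In the small subunit 1 gene was called, Mrps5 at 6 hpd (chr2:127587275-127616835, plus strand). Mrps5 had 72.4 and 69.2 CPM in NT, 64.4 and 60.6 after 0.5 h, 59.6 and 61.1 after 1 h, 59.8 and 59.6 after 2 h, and 60.1 and 53.3 CPM after 6 h, all below NT, with a log2 fold change of -0.32 ± 0.10 (edgeR adjusted p = 0.0423). Its start stands 131 bp from that of the divergent gene Zfp661, which was not called at any time (-0.15 at 6 hpd, adjusted p = 0.685).

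Cytochrome c oxidase held both chain genes called down. Cox5a (chr9:57521231-57537516, plus strand) had 146 and 142 CPM in NT, 138 and 138 after 0.5 h, 130 and 135 after 1 h, 118 and 115 after 2 h, and 109 and 118 CPM after 6 h. Its libraries lay below NT at every time, and the log2 fold change passed the threshold at 6 hpd (-0.35 ± 0.10, edgeR adjusted p = 0.0233) and missed it at 2 hpd (-0.30 ± 0.10, 0.0590). Mpi, a gene transcribed across it on the other strand, was called down at 2 hpd (-0.35, adjusted p = 0.0461). Cox6b2 (chr7:4745239-4753013, minus strand), the testis form of the Cox6b subunit, had 27.4 and 30.7 CPM in NT, 23.4 and 32.0 after 0.5 h, 24.5 and 26.4, and 23.5 and 26.9 CPM at 1 and 2 hpd, and 19.5 and 22.1 CPM after 6 h. Except at 0.5 hpd its libraries lay below NT, and it was called at 6 hpd (-0.48 ± 0.15, edgeR adjusted p = 0.0422).

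The gene called up was the ATP synthase pseudogene Atp5c1-ps, with the fewest fragments of all members (27.2 per library) and a TU of 556 bases that covers 29.9% of the annotated transcript (chr13:77668925-77669480, minus strand). It had 1.08 and 0.945 CPM in NT, 1.64 and 1.80 after 0.5 h, 1.32 and 1.77 after 1 h, 1.77 and 1.64 after 2 h, and 1.90 and 2.21 CPM after 6 h. Every treated library was above NT, and the log2 fold change at 6 hpd was 1.02 ± 0.31 (edgeR adjusted p = 0.0380). As a pseudogene it shares sequence with Atp5c1, so that its reads are uncertain. The call was lost in DESeq2, with total counts only and without either library of NT or 6 hpd.

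**Figure D3:**
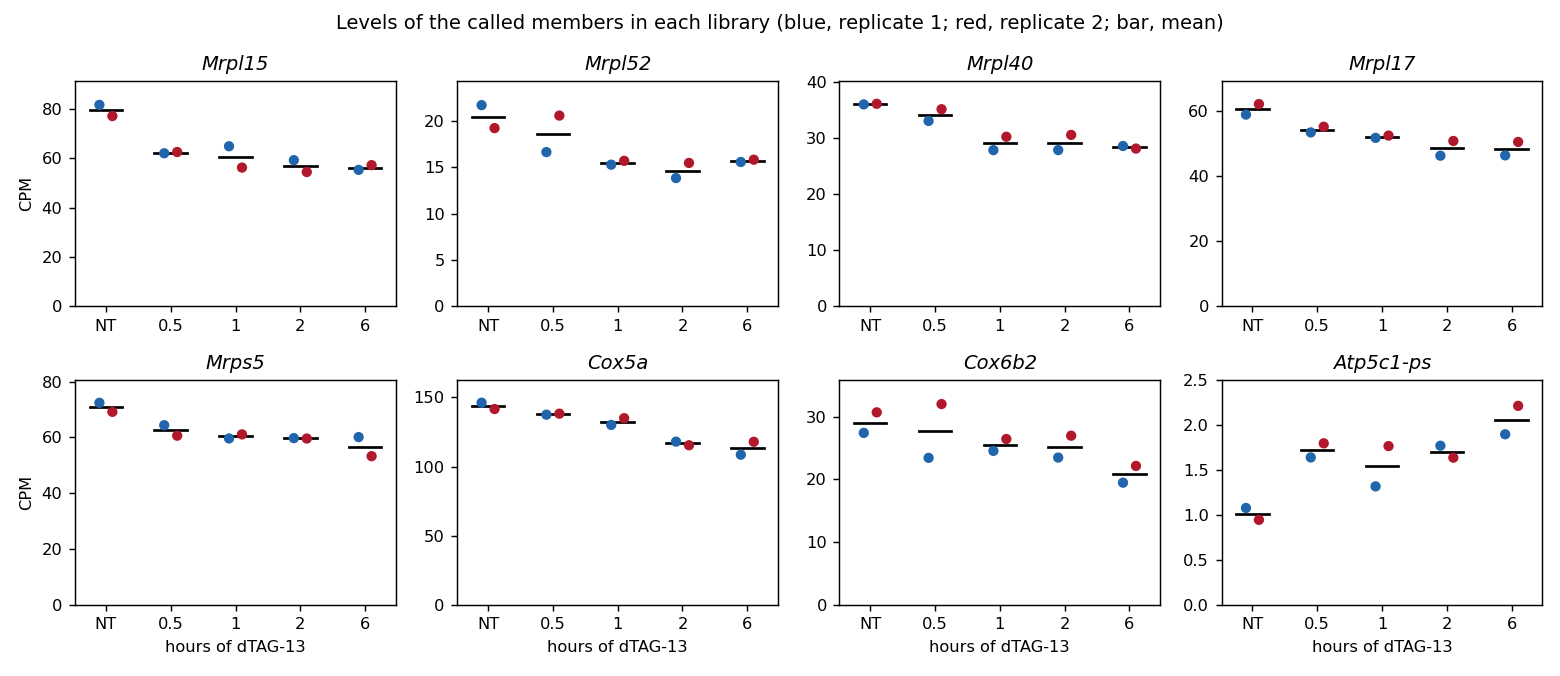
Level of the 8 members called at any time in each library (CPM, points; bar, mean of 2 libraries) over hours of dTAG-13, each axis from 0. Mrpl15 fell from 77.1 to 81.6 CPM in NT to 55.3 to 57.2 CPM at 6 hpd, and Atp5c1-ps stood at about 1 to 2 CPM throughout.

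These calls lay near the threshold. Of the 10 calls, those of Mrpl15 at 2 and 6 hpd were kept without any 1 library, and the other 8 were lost when a library of NT was left out or in further such fits. DESeq2 kept the calls of Mrpl15 at 2 and 6 hpd and of Cox5a at 6 hpd. The 6 falls at 6 hpd lay between -0.50 and -0.32 on the log2 scale with TMM scaling and every library, and between -0.59 and -0.29 over the other settings that keep every library, and no called value changed sign under any alternative.

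Other members came close to the threshold without passing it, and some of these passed it in other settings. Ndufb5 and Atp5j2 were called down at 1, 2 and 6 hpd with total counts only and at 1 hpd without 2 hpd replicate 1, and Ndufb5 also at 6 hpd without either 2 hpd library and at 2 hpd without its replicate 2. Ndufb5, an accessory subunit of complex I, had 71.4 and 64.2 CPM in NT and 57.6 CPM or less in the 8 treated libraries, all below NT, with log2 fold changes of -0.25, -0.36, -0.33 and -0.33 (edgeR adjusted p = 0.468, 0.0759, 0.0714 and 0.0534). Atp5j2, a membrane subunit of the ATP synthase, had 61.9 and 56.2 CPM in NT and 46.2 and 47.2 CPM after 1 h (-0.34 ± 0.10, edgeR adjusted p = 0.0641). Mrpl36, a small protein of the large subunit, had the lowest fold change of all members at 1 hpd (-0.51 ± 0.17, adjusted p = 0.105), at 8.55 and 8.28 CPM in NT and 6.21 and 5.58 CPM after 1 h.

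Among members above NT, Mrps6 of the small subunit stood at 80.7 and 69.8 CPM in NT and 107 and 84.4 CPM after 2 h (0.35 ± 0.13, edgeR adjusted p = 0.112). Ndufs1, the largest iron-sulfur subunit of complex I, stood at 122 and 117 CPM in NT and 166 and 130 CPM after 2 h (0.31, adjusted p = 0.138). Sdha, the catalytic flavoprotein of complex II, stood at 125 and 112 CPM in NT and 140 and 138 CPM after 6 h (0.23 ± 0.11, adjusted p = 0.184). None of these passed the test in the fit without a block. At 2 hpd replicate 1 was the higher library of Mrps6, Ndufs1, Mrps28, Mrps9 and Ndufaf2, and without 2 hpd replicate 2 these 5 were among 7 members called up and 8 called down at that time. Cox7b2 (0.37 at 6 hpd, edgeR adjusted p = 0.187), Mrps36 (0.36, 0.0988), Mrps18c (0.29, 0.0998) and Mrpl14 (0.33, 0.189) were the others of smallest p on this side at 6 hpd.

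The medians of both classes were slightly below 0 at every time. The median log2 fold change of the mitoribosome was -0.083, -0.10, -0.10 and -0.076 at 0.5, 1, 2 and 6 hpd, and that of the chain -0.061, -0.096, -0.057 and -0.042. The medians over all tested TUs were -0.022, -0.043, -0.040 and -0.036, and those over Single Gene TUs 0.0073, 0.024, 0.047 and 0.071. At 1 hpd 119 of 157 members had a fold change below 0 and at 6 hpd 99, whereas 101 and 88 lay below the median over all tested TUs. With DESeq2 the chain medians were -0.025 and -0.013 at 2 and 6 hpd, and with median-of-ratios scaling the chain sum at 2 hpd was 0.101% above NT. These shifts are small beside the libraries: without NT replicate 1 the mitoribosome medians were -0.011, -0.033, -0.044 and -0.029, and those of the chain -0.016, -0.043, -0.032 and 0.00094.

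Members whose 2 libraries both lay below both NT libraries were more frequent than among all TUs. At 1 hpd these were 45.2% of mitoribosome and 52.4% of chain genes, against 26.7% of all tested TUs, and at 6 hpd 42.5% and 39.3%, against 31.0%. Members wholly above NT were 9.59% of the mitoribosome and 21.4% of the chain at 6 hpd, against 27.5% of all tested TUs.

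With TMM scaling the summed levels of the complexes stood differently against NT, and no test of a difference between complexes was made. Summed over its genes, complex IV had 718 and 713 CPM in NT, 669 and 684 after 0.5 h, 660 and 660 after 1 h, 652 and 650 after 2 h, and 657 and 636 CPM after 6 h. All 8 treated libraries lay below NT, the mean fell by 9.63% at 6 hpd, and the separation held with median-of-ratios and with total-count scaling. Without Cox5a, left out after its values were seen, the sum fell by 6.69% at 6 hpd and still lay below NT at every time.

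The large ribosomal subunit had 1630 and 1534 CPM in NT and 1436 to 1483 CPM in the 8 treated libraries, all below NT. The mean fell by 7.02% at 6 hpd, and without Mrpl15, left out after its values were seen, it fell by 5.85%. With total counts the large subunit fell by 12.6% and complex IV fell by 15.1% at 6 hpd, and with median-of-ratios scaling the large subunit fell by 5.12% and complex IV fell by 7.76%. The small subunit had 1257 and 1177 CPM in NT and 1188 to 1278 CPM afterwards and overlapped NT at every time. Within this sum the genes went different ways. At 1 hpd most had a log2 fold change below 0, among them Mrps34 (-0.44) and Mrps5 (-0.23). Mrps6 (0.33), Mrps28 (0.30) and Mrps9 (0.20) were among those above 0. The ratio of large to small subunit, which does not depend on the scaling, was 1.30 and 1.30 in NT, 1.17 and 1.25 after 0.5 h, 1.19 and 1.16 after 1 h, 1.16 and 1.22 after 2 h, and 1.21 and 1.20 after 6 h. It lay below NT at every time. With median-of-ratios scaling the large subunit overlapped NT at 2 hpd, and with total counts the small subunit lay below NT from 1 hpd on.

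The ATP synthase had 1578 and 1508 CPM in NT and 1434 to 1486 CPM in the treated libraries, all below NT, although with median-of-ratios scaling this held at 1 hpd alone. Without Atp5b, left out after its values were seen, the sum overlapped NT at 0.5 hpd and lay below it at the later times. Complex I overlapped NT at every time (1610 and 1496 CPM in NT, 1551 and 1569 CPM after 6 h), and lay below it at every time with total counts. Complex II, which also belongs to the citric acid cycle, lay above NT at 6 hpd (345 and 335 CPM, against 329 and 303 CPM), and overlapped NT with total counts. Of its 4 genes, Sdha had a log2 fold change of 0.23 at 6 hpd, Sdhd 0.099, Sdhc 0.029 and Sdhb -0.16, and none was called. Complex III lay below NT at 0.5 hpd (392 and 387 CPM, against 420 and 397 CPM) and overlapped it afterwards, whereas it overlapped NT at every time with median-of-ratios scaling and lay below it at every time with total counts. The ratio of complex IV to complex I was 0.446 and 0.477 in NT and 0.424 and 0.405 after 6 h, and that of complex II to complex I 0.204 and 0.202 in NT and 0.222 and 0.213 after 6 h.

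**Figure D4:**
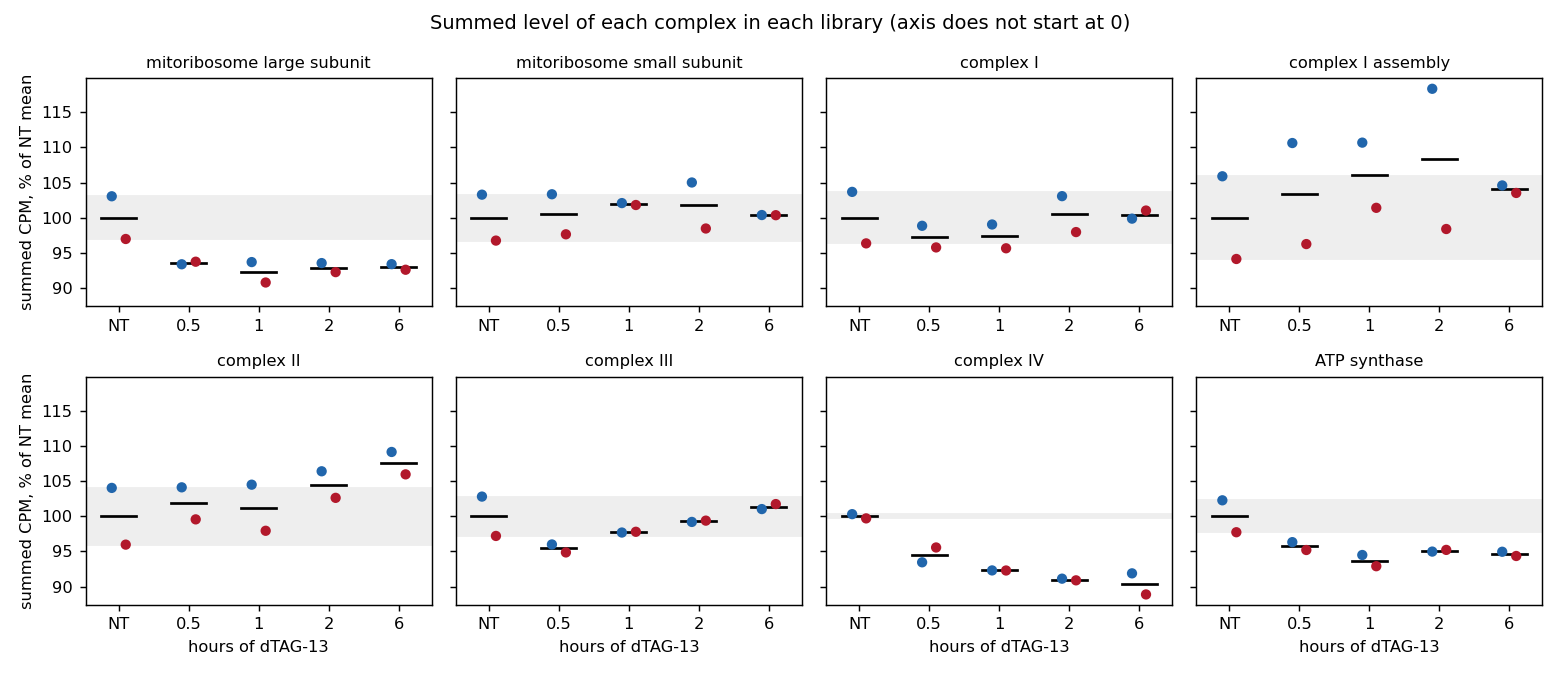
Summed CPM of the genes of each complex in each library, in % of the NT mean, over hours of dTAG-13 (blue, replicate 1; red, replicate 2; bar, mean; grey band, range of the 2 NT libraries; the axis does not start at 0). Complex IV, the large ribosomal subunit and the ATP synthase lay below the NT range at every time, and complex II above it at 6 hpd. With median-of-ratios scaling the large subunit overlapped NT at 2 hpd and the ATP synthase at 0.5, 2 and 6 hpd, and with total counts complex II overlapped it at 6 hpd.

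As whole classes, the mitoribosome and the chain kept nearly the same proportion. The mitoribosome sum was 2887 and 2711 CPM in NT and 2699 and 2686 CPM after 6 h, and the chain sum 4925 and 4658 CPM in NT and 4698 and 4675 CPM after 6 h. Their ratio was 0.586 and 0.582 in NT, 0.583 and 0.582 after 0.5 h, 0.584 and 0.588 after 1 h, 0.579 and 0.575 after 2 h, and 0.575 and 0.575 after 6 h. The ratio overlapped NT at 0.5 and 1 hpd and lay below it at 2 and 6 hpd, where its mean fell by 1.21% and 1.65%. The mitoribosome sum at 6 hpd lay below NT, but overlapped it with median-of-ratios scaling.

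**Figure D5:**
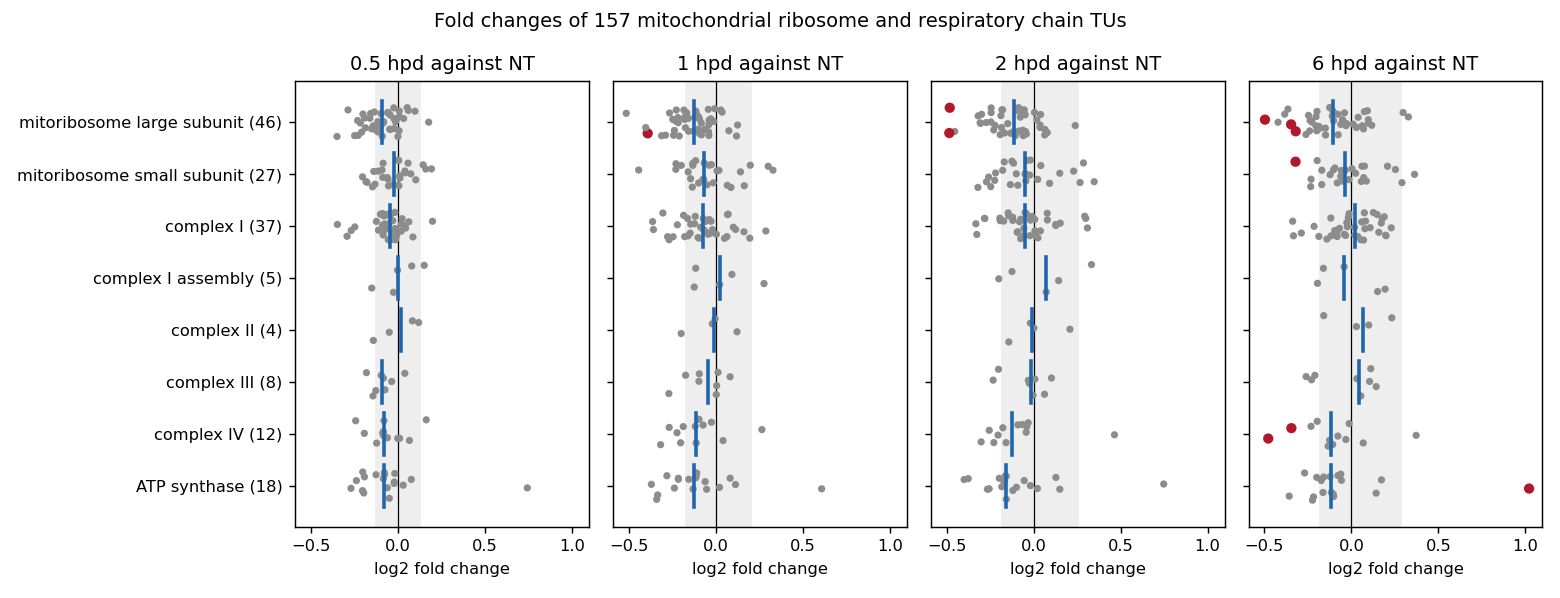
Log2 fold change against NT of each of the 157 genes at 0.5, 1, 2 and 6 hpd by complex (number of genes in brackets), with genes called by edgeR in red, the median of each complex as a blue line, and the quartiles of all Single Gene TUs as a grey band. At 6 hpd the medians were -0.12 for complex IV and for the ATP synthase, -0.11 for the large ribosomal subunit, and 0.018 for complex I.

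The length of the TU moved with the fold change. At 1 hpd the median log2 fold change was -0.13 over 31 members under 10 kb, -0.12 over 93 of 10 to 30 kb and 0.013 over 33 of 30 kb or more, and at 6 hpd it was -0.12, -0.078 and 0.060. All Single Gene TUs ran the same way, with -0.15, -0.039 and 0.12 after 1 h and -0.061, -0.0060 and 0.16 after 6 h. In the small ribosomal subunit 8 of 27 TUs had 30 kb or more, in the ATP synthase 5 of 18, in complex III 2 of 8, in complex II 1 of 4, in complex I 7 of 37, in complex IV 2 of 12, in the large ribosomal subunit 6 of 46 and among the complex I assembly factors 2 of 5. The part of length in the differences between complexes was not tested. Members with NRF1, ETS or YY1 letters had a median of -0.067 at 6 hpd (74 genes), and those with none of them -0.059 (62 genes).

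Between times no member changed past the threshold in the fit without a block. None was called at 1 against 0.5 hpd (0.109% of all tested TUs), at 2 against 1 hpd (0.218%), at 6 against 2 hpd (0.777%) or at 6 against 1 hpd (4.88%), by edgeR or by DESeq2. At an unadjusted p under 0.05 edgeR gave 1, 1, 0 and 6 members, against 5.34%, 5.8%, 11.2% and 19.0% of all tested TUs, and DESeq2 0, 0, 0 and 2 members. The smallest p was that of Ndufa3, an accessory subunit of complex I, at 6 against 1 hpd. Ndufa3 had 14.3 and 13.5 CPM in NT, 11.0 and 11.9 after 0.5 h, 10.6 and 11.0 after 1 h, 12.6 and 13.9 after 2 h, and 14.3 and 15.7 CPM after 6 h. It lay below NT at 0.5 and 1 hpd and overlapped it later, with 0.47 ± 0.14 on the log2 scale between 1 and 6 hpd (edgeR adjusted p = 0.0628).

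Many members share their surroundings with another transcript. Of the 157, 23.6% had a divergent TU starting within 1000 bp (16.2% of Single Gene TUs), 16.6% a divergent gene (9.59%), and 76.4% overlapped a TU on the other strand (67.1%). Reads were counted by strand.

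Other genes of mitochondrial function were given by lists in the same fit. Of 18 other subunits, such as Cox4i1 and cytochrome c, none was called at 6 hpd, and Gpd2, the glycerol phosphate dehydrogenase that feeds electrons to the chain, rose at 1 hpd (0.45, edgeR adjusted p = 0.0349). Of 57 assembly factors 5 fell at 6 hpd and none rose, with a list median of -0.0058. Among all Single Gene TUs 7.73% fell and 10.4% rose at that time, so that the falls were about as frequent as in that background. Rbfa, which matures the small ribosomal subunit, fell at 1 hpd (-0.49, adjusted p = 0.0403), 2 hpd (-0.69, 0.00309) and 6 hpd (-0.57, 0.00888). Trub2, a mitochondrial pseudouridine synthase (-0.35, 0.0262), and Sco2, a copper chaperone of complex IV (-0.75, 0.0297), fell at 6 hpd. Lyrm7, which matures complex III, fell at 2 hpd (-0.64, 0.0267) and 6 hpd (-0.58, 0.0335), and Mtg1, a GTPase of large subunit assembly, at 6 hpd (-0.43, 0.0485).

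None of 14 mitochondrial translation factors was called at any time. The background for lists this short was 2.15% of all TUs rising and 3.61% falling after 1 h, 4.26% rising and 5.57% falling after 2 h, and 10.4% of Single Gene TUs rising and 7.73% falling after 6 h. Of 14 regulators of mitochondrial biogenesis, Ppargc1b, a PGC-1 coactivator, rose at 1 hpd (0.47, edgeR adjusted p = 0.0158), Nrf1 rose at 2 hpd (0.42, 0.0441), and Pprc1, another coactivator of the family, fell at 6 hpd (-0.35, 0.0259). Of 26 import genes, Timm21 rose at 6 hpd (1.06 ± 0.18, 0.00110), and Timm8a1 (-0.42, 0.0210) and Hspd1, the matrix chaperonin (-0.32, 0.0359), fell, beside the same shares of Single Gene TUs.

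The list median of citric acid cycle genes was above 0 at every time, like that of Single Gene TUs. Of 18 genes, 2 rose and none fell at 6 hpd, near the 10.4% up and 7.73% down of Single Gene TUs, with list medians of 0.073, 0.19, 0.23 and 0.21 on the log2 scale at 0.5, 1, 2 and 6 hpd. Sucla2, a subunit of succinyl-CoA synthetase, rose at 2 hpd (0.39, edgeR adjusted p = 0.0284) and 6 hpd (0.41, 0.0160), and Idh3a, of the NAD-dependent isocitrate dehydrogenase, at 6 hpd (0.36, 0.0220). Of 16 glycolysis genes 2 rose and 3 fell at 6 hpd, beside the same 10.4% and 7.73%. Hk1 (0.47, 0.00934; it was also called up at 1 hpd, 0.62, 0.00307) and Pfkm (0.48, 0.0187) rose, and Hk2, the other main hexokinase (-0.45, 0.00672), Pgam1 (-0.39, 0.0184) and Eno1 (-0.36, 0.0223) fell.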

How the data were processed

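TT_chem_seq libraries of SOX2-FKBP E14 cells (5 groups of 2, from the labels) were analysed from the deposited table of fragment counts per TU. Per the methods and submitters' notes, BWA 0.7.17-r1188 was used by the authors for alignment to mm10. They filtered alignments with SAMtools 1.10, removed duplicates with Picard 2.12.0, split them by strand, called TUs on pooled data with a hidden Markov model and linked them to RefSeq genes. The other deposited table holds TU positions in base pairs, strand, class and symbol; no column of another sample was present (0 unused).

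A TU needed more than 10 fragments in 2 or more of the libraries and was then tested with edgeR 4.0.16 (TMM, quasi-likelihood F-test, no block, 1 model over the 10 libraries) in R 4.3.3, with Benjamini-Hochberg adjustment over 28459 TUs and a threshold of 0.05. The 12320 TUs left out held 0.316% of fragments, and the biological coefficient of variation was 10.0%. CPM use TMM-scaled totals, and SE and 95% intervals come from the fit. Levels are per kilobase of TU. The fit was tested on simulated data. Alternatives were DESeq2 1.42.0, total counts only, median-of-ratios (RLE) factors, no count filter, the replicate block and leaving out each library.

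Members and lists were chosen with earlier results of these data known. Named members were the 3 of smallest p per class, direction and time, members called at 0.5 or 1 hpd, the 10 of smallest joint p per class, and the highest 3 and lowest 1 in NT, and those printed in full were picked from these after their values were seen. All members called at 2 or 6 hpd, the sums without 1 gene and the length classes were also added then, as were list genes named at 1 or 2 hpd or beyond the first 3 called at 6 hpd. The labels do not say whether replicates are separate cultures, so p-values measure only the spread between these libraries, which may be technical. Replicates differed by more than sampling noise (chi-square per degree of freedom 2.69 to 9.08), so none was merged.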

Additional observations from a re-analysis of the deposited data

How the results depend on the processing

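Members called at 0.5 hpd, in the order up and down, were none in every setting except the replicate block, which gave 1 down. At 1 hpd (1 down) DESeq2, RLE factors and no count filter gave 0 down, total counts only 4 and the replicate block 6. At 2 hpd (2 down) DESeq2 and no count filter gave 1 down, total counts only 12, and the replicate block 10 down and 3 up. At 6 hpd (1 up, 6 down) DESeq2 gave 0 up and 2 down, RLE factors 3 down, no count filter 2 down, total counts only 0 up and 11 down, and the replicate block 4 up and 13 down. Members called in the joint test (1) were 3 with total counts only and 9 with the replicate block. Those called at 6 against 1 hpd (0) were 1 with the replicate block, Ndufa3, which was called up. Under total counts only the medians over all TUs were -0.056, -0.13, -0.16 and -0.13 at 0.5, 1, 2 and 6 hpd, and those of the mitoribosome -0.19, -0.22 and -0.17 and of the chain -0.18, -0.17 and -0.13 at 1, 2 and 6 hpd. By class, the replicate block gave the mitoribosome 1 down at 0.5 hpd, 4 at 1 hpd, 4 down and 1 up at 2 hpd, and 6 down and 2 up at 6 hpd. It gave the chain 2 down at 1 hpd, 6 down and 2 up at 2 hpd, and 7 down and 2 up at 6 hpd. With no library left out, the block thus called Mrpl15 down at 0.5 hpd, Ndufb5 and Atp5j2 down at 1, 2 and 6 hpd and Mrpl36 down at 1 hpd. The block called Mrps6 and Ndufs1 up at 2 hpd, Cox7b2 up at 2 and 6 hpd and Mrps18c and Mrps36 up at 6 hpd. The cause of these differences was not tested.

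Leaving out 1 library gave 0 to 3 members down at 1 hpd, 0 to 7 up and 1 to 8 down at 2 hpd (7 up and 8 down when 2 hpd replicate 2 was left out), 0 to 1 up and 1 to 8 down at 6 hpd, and 0 to 1 in the joint test. The medians of the mitoribosome ranged from -0.11 to -0.011, -0.13 to -0.033, -0.16 to -0.044 and -0.096 to -0.029, and those of the chain from -0.079 to -0.016, -0.10 to -0.043, -0.10 to -0.032 and -0.064 to 0.00094. Of 960 values of 64 named fold changes, 3 changed sign, all at 0.5 hpd and none called: Cox6b2 to 0.0018 when NT replicate 2 was left out and to 0.14 when 0.5 hpd replicate 1 was (range -0.30 to 0.14), and Mrpl52 to 0.0070 when 0.5 hpd replicate 1 was (range -0.29 to 0.0070). Leaving the Ndufaf genes, Atp5s and Atp5sl out of the chain, with the pseudogene Atp5c1-ps kept, moved no median beyond the replicate spread.

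Libraries of different groups share only a replicate number: their deviations correlated at 0.0742 to 0.291 across TUs. Depth limits Atp5c1-ps most, with 27.2 fragments per library.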
